A study of Mus musculus with 30 samples.

Results

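Astrocyte identity was described in 5 libraries of Gfap+ astrocytes sorted from the brains of non-transgenic (non-Tg) mice. They were set against 5 libraries of Cd11b+ myeloid cells and 5 libraries of NeuN+ neurons from non-Tg mice. These 15 libraries were the non-Tg members of a series of 30; the other 15 came from PS2APP transgenic mice, with 5 of each sort, and served here as separate libraries in which to look at the same genes. All mice were 11.5 months old, and the non-Tg mice were littermates of the PS2APP mice, a line with transgenes for human presenilin 2 and human amyloid precursor protein. A gene was called astrocyte-enriched when its RNA was higher in the non-Tg astrocyte libraries than in the non-Tg myeloid libraries and also higher than in the non-Tg neuron libraries. By this rule 2381 of 17496 tested genes were astrocyte-enriched, which is 13.6% of the genes tested. The question addressed was which genes set sorted astrocytes apart from both other sorted populations of non-Tg mice, as far as the labels name them.

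Astrocytes are glial cells that take up neurotransmitter and potassium from the space around synapses, wrap blood vessels with their endfeet, hold the glycogen store of the brain and supply neurons and other glia with lipids and amino acids. They arise from radial glia and keep many of the transcription factors of those precursors. Myeloid cells of the brain are mostly microglia, which are resident phagocytes, and NeuN marks the nuclei of most mature neurons.

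Each non-Tg library held between 3412723 and 6749681 counts of uniquely aligned reads. The astrocyte libraries held 3412723 to 6581186 counts, the myeloid libraries 3578249 to 6143018 and the neuron libraries 4000154 to 6749681. After ±, levels have the SD over 5 libraries and log2 fold changes the standard error (SE) of the fit. Levels are given as CPM, the counts of a gene relative to its library's total, scaled by trimmed mean of M-values factors over the 15 libraries, or as the authors' RPKM where genes are compared with each other. The nuclear RNA Malat1 took 20.4% to 29% of the counts of astrocyte libraries, 3.23% to 5.76% of myeloid libraries and 8.61% to 10.4% of neuron libraries. Mitochondrially encoded genes took 2.41% to 4.74%, 5.46% to 12.7% and 0.669% to 1.55% of the counts of these sorts. Per the labels' protocols, astrocyte pellets typically gave 2 to 5 ng of RNA, microglial pellets 10 to 20 ng and neuron pellets 200 to 300 ng, and neurons were spun at 2600 rcf where the other cells were spun at 6600 rcf. The sample identifiers in the titles of the astrocyte libraries form a block apart from those of the myeloid and neuron libraries, so any step that differed with it cannot be told apart from the sort. Neither the brain region nor the animal behind each library is labelled, so the p-values reflect only how much libraries of a sort varied, which may be technical. In sorted bulk samples a larger share of cells with an RNA and more of that RNA per cell cannot be told apart.

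The 4 markers named for the sort followed their labels. Gfap, the intermediate filament protein used for the sort, had 822, 753, 932, 459 and 819 CPM in the astrocyte libraries, against 12.7 to 24.4 CPM in myeloid and 2.44 to 5.38 CPM in neuron libraries. Because the cells were chosen by Gfap protein, its RNA is a check of the labels and not a finding. Slc1a2, the main glutamate transporter of forebrain astrocytes, had 7411, 10133, 13669, 9706 and 13946 CPM in astrocyte libraries, against 338 to 801 CPM in myeloid and 326 to 504 CPM in neuron libraries. Ntsr2, a neurotensin receptor, had 1611, 1298, 979, 1111 and 1034 CPM in astrocyte libraries, against 18.6 to 43.6 CPM in myeloid and 6.42 to 9.44 CPM in neuron libraries. Fgfr3, a fibroblast growth factor receptor of astrocytes and their precursors, had 491, 541, 465, 446 and 523 CPM in astrocyte libraries, against 11.7 to 20.5 CPM in myeloid and 2.44 to 4.33 CPM in neuron libraries. For each of the 4, the lowest astrocyte library stood above the highest library of both other sorts, with wide gaps. Itgam, which encodes Cd11b, had 1.71 to 11.8 CPM in astrocyte libraries, against 1445 to 1931 CPM in myeloid libraries. Rbfox3, which encodes NeuN, had 5.01 to 19.7 CPM in astrocyte libraries, against 98.2 to 174 CPM in neuron libraries.

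Of the 13 pan-astrocyte markers in the list used here, 12 were enriched, each at least 4-fold over both other sorts, with a median log2 fold change of 4.47 over myeloid and 7.30 over neuron libraries. The medians over all genes tested were 0.11 and -0.08. The exception was S100b, a calcium-binding protein, with 30.0 ± 5.21 CPM in astrocyte and 20.7 ± 9.87 CPM in myeloid libraries (SD, n = 5 each). Its log2 fold change over myeloid was 0.55 ± 0.35 (SE, edgeR adjusted p = 0.19), and over neurons it was 2.04 ± 0.37 (edgeR adjusted p = 6.8e-05). Aldh1l1, an enzyme of folate metabolism, Aqp4, the water channel of endfeet, and Gja1, which encodes connexin 43, stood at 219 ± 51.8, 498 ± 105 and 318 ± 63.6 CPM in astrocyte libraries. None of these 3 exceeded a mean of 20 CPM in myeloid libraries, where they stood at 9.59 ± 5.93, 19.5 ± 7.24 and 14.2 ± 5.02 CPM.

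Across all genes, 5735 genes (32.8% of those tested) were higher in astrocyte than in myeloid libraries and 4957 (28.3%) were lower. Against neuron libraries, 4618 genes (26.4%) were higher in astrocytes and 5085 (29.1%) were lower. The 2 comparisons share the 5 astrocyte libraries. Genes lower in astrocytes than in both other sorts numbered 1493 (8.53%). A further 1447 genes (8.27%) were higher than in myeloid but lower than in neuron libraries, and 967 (5.53%) were lower than in myeloid but higher than in neuron libraries. Genes higher than in neurons and not called against myeloid libraries numbered 1270 (7.26%). Neither comparison passed the threshold for 3389 genes (19.4%). Calls are from edgeR's quasi-likelihood test at a Benjamini-Hochberg adjusted p of 0.05.

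Among the 2381 enriched genes, 1034 were higher at least 4-fold over both other sorts, which is 5.91% of the genes tested. Genes lower at least 4-fold than both numbered 305 (1.74%). These 2 counts are not directly comparable, since a gene lower than both needs counts in 2 sorts and an enriched gene only in astrocytes. The 5 astrocyte libraries stood above all 10 other libraries without overlap for 1859 of the enriched genes, or 78.1%, while 10.9% of all tested genes had such a gap. Both shares come from the libraries that made the calls, so a higher share among enriched genes follows from the rule. The enriched genes included 1764 protein-coding genes and 357 long noncoding RNAs, and 229 identifiers had no symbol in the RefSeq table. Together the enriched genes took 47.9% to 54.9% of the counts of astrocyte libraries, 8.39% to 10.9% of myeloid and 16.9% to 18.6% of neuron libraries. Without Malat1 these shares were 33.4% to 37.2%, 5.33% to 5.95% and 8.93% to 9.15%. At the edge of the rule, Ctnna1 lay just inside with a larger adjusted p of 0.04954 and log2 fold changes of 0.52 over myeloid and 1.64 over neuron libraries, and Prpf4 lay just outside with 0.05004, 0.45 and 0.42.

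**Figure D1:**
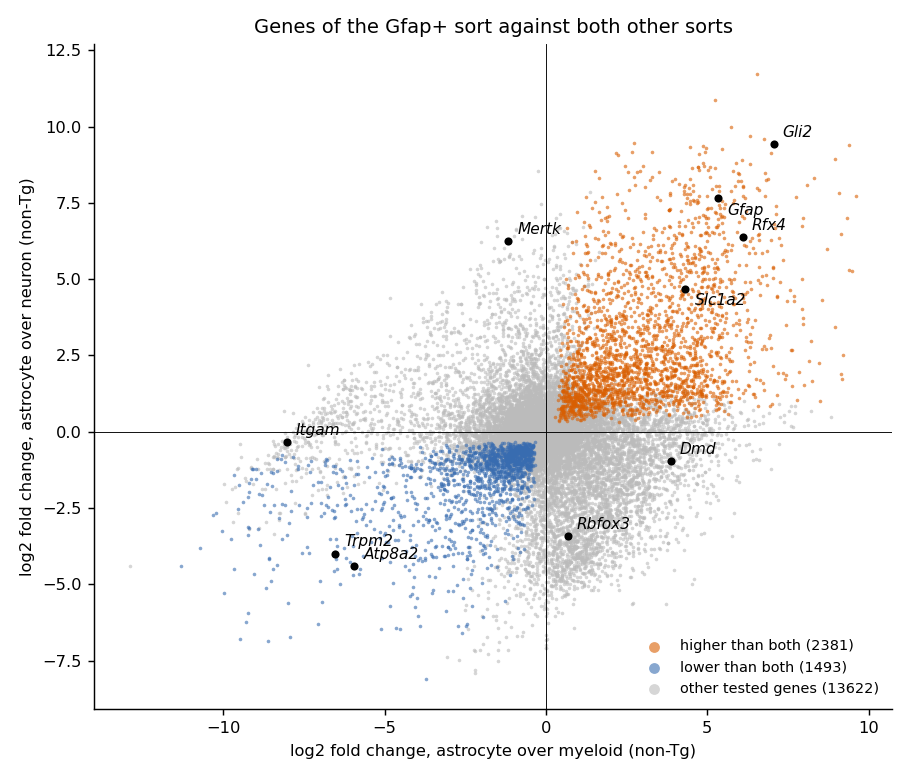
Each point is 1 of the 17496 tested genes, with its log2 fold change of astrocyte over myeloid libraries on the horizontal axis and of astrocyte over neuron libraries on the vertical axis (non-Tg, 5 libraries per sort). The 2381 genes higher than in both sorts lie to the upper right and the 1493 lower than in both lie to the lower left; Gli2 lies far out at 7.05 and 9.43.

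By level per length, the enriched gene of highest mean RPKM in astrocyte libraries was Malat1, at 12427 ± 3282 RPKM (SD, n = 5), against 1775 RPKM in myeloid and 3621 RPKM in neuron libraries. Slc1a2 stood at 254 ± 68.4 RPKM and Ntsr2 at 231 ± 44.8 RPKM. Against these levels, myeloid libraries held 11.2 RPKM of Slc1a2 and 4.92 RPKM of Ntsr2. Pnisr, which encodes a serine- and arginine-rich nuclear protein, stood at 267 ± 61.5 RPKM in astrocyte libraries but also at 91.5 RPKM in myeloid and 164 RPKM in neuron libraries. Its log2 fold change over neurons was 0.67 ± 0.21 (edgeR adjusted p = 0.01), and its astrocyte and neuron libraries overlapped. Mir378b, a microRNA gene inside the span of Msi2, was listed at 339 ± 47.4 RPKM; reads of a short gene inside another gene cannot be assigned with certainty.

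The 15 enriched genes with the largest difference against the nearer of the 2 sorts, at a mean of at least 50 CPM, were Gli2, Gucy2e, Dipk1c, Thbs4, Rfx4, Cbs, Spata3, Atoh8, Grin2c, Tnc, Atp13a4, Sox9, Lcat, Aox1 and Olig2. Transcription factors made up 5 of them. Gli2, a factor of the Hedgehog pathway, had 265, 228, 172, 191 and 229 CPM in astrocyte libraries, against 0.721 to 2.73 CPM in myeloid and 0 to 0.833 CPM in neuron libraries. Its log2 fold changes were 7.05 ± 0.32 over myeloid and 9.43 ± 0.38 over neuron libraries (edgeR adjusted p = 3.8e-14 and 9.5e-15). Rfx4, a winged-helix factor, had 618, 671, 350, 546 and 466 CPM in astrocyte libraries, against 3.39 to 16.7 CPM in myeloid and 5.38 to 7.21 CPM in neuron libraries. Sox9, needed for the switch of neural precursors to gliogenesis, averaged 220 ± 88.5 CPM in astrocytes, against 4.32 ± 1.63 CPM in myeloid and 3.02 ± 0.605 CPM in neuron libraries. Atoh8, a basic helix-loop-helix factor, had 83.3, 67.5, 41.6, 31.7 and 28.8 CPM in astrocyte libraries and no more than 1.25 CPM in any myeloid and 1.72 CPM in any neuron library.

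Olig2, a basic helix-loop-helix factor best known from the oligodendrocyte lineage and also present in some astrocytes, had 181, 159, 98.3, 127 and 99.7 CPM in astrocyte libraries. It had 1.52 to 4.07 CPM in myeloid and 0.125 to 0.343 CPM in neuron libraries, so that each astrocyte library was above every other one. Its neighbour in function, Olig1, had 4.96 to 9.82 CPM in astrocyte libraries, against 0.361 to 3.62 CPM in myeloid and 0 to 1 CPM in neuron libraries. Per length, Olig1 stood at 0.993 ± 0.262 RPKM and Olig2 at 16.4 ± 4.21 RPKM in astrocyte libraries. Markers of oligodendrocyte precursors summed to 80.3 ± 13.4 CPM in astrocyte libraries, 22.7 ± 4.97 CPM in myeloid and 18.7 ± 1.002 CPM in neuron libraries. Most of the neuron sum came from a single marker, Lhfpl3, at 14.5 to 18.1 CPM in neuron and 2.77 to 8.15 CPM in astrocyte libraries. The part of oligodendrocyte precursors in the Olig2 level was not tested.

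The other genes of the 15 encode receptors, enzymes, pumps and matrix proteins. Grin2c, the GluN2C subunit of NMDA receptors, had 962, 1063, 902, 755 and 1189 CPM in astrocyte libraries, against 12.8 to 29.4 CPM in myeloid and 1.25 to 3.93 CPM in neuron libraries. All neuron libraries were below all myeloid libraries for this gene. Thbs4, a thrombospondin, had 180 to 238 CPM in astrocyte libraries, against 0 to 9.21 CPM in myeloid and 0.5 to 1.51 CPM in neuron libraries. Cbs, which makes cystathionine from homocysteine and serine, had 613, 732, 524, 395 and 520 CPM in astrocyte libraries, against 3.62 to 13.6 CPM in myeloid and 0.414 to 2.13 CPM in neuron libraries. The matrix glycoprotein gene Tnc had 205 to 484 CPM, the P5-type ATPase gene Atp13a4 388 to 665 CPM, Lcat, which esterifies cholesterol on lipoproteins, 115 to 207 CPM and the aldehyde oxidase gene Aox1 142 to 194 CPM in astrocyte libraries. The guanylate cyclase gene Gucy2e had 85.4 to 117 CPM, Dipk1c 38.3 to 85.0 CPM and Spata3 37.9 to 61.1 CPM there. Over the 15 genes, the log2 fold change over myeloid lay between 5.47 and 7.05 and over neurons between 5.93 and 9.43, with no overlap of astrocyte libraries with any other library, as the rule for naming them required.

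**Figure D2:**
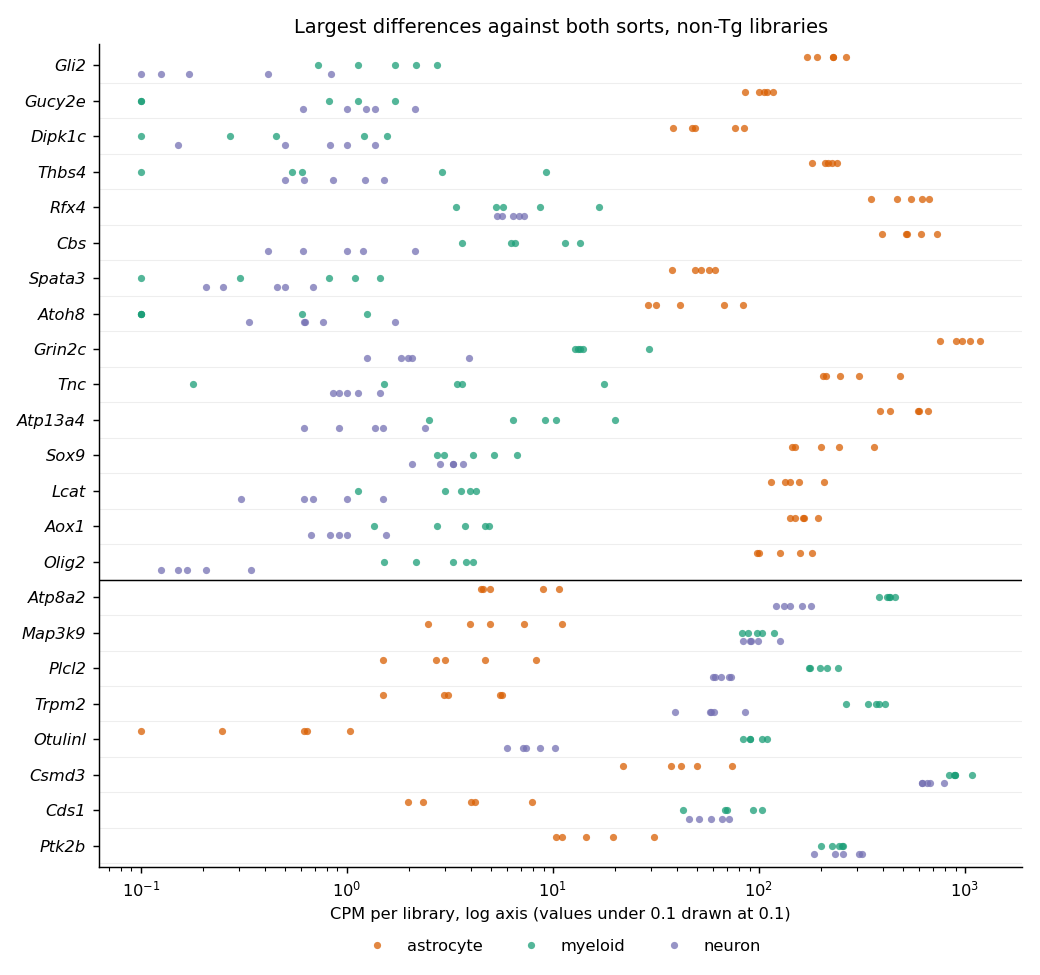
CPM of each non-Tg library on a log axis, with astrocyte, myeloid and neuron libraries as separate points (5 each), for the 15 genes most above both other sorts (upper rows) and the 8 genes most below both (lower rows). In the upper rows every astrocyte point lies to the right of all others, as in Gli2 with 172 to 265 CPM, and in the lower rows to the left, as in Trpm2 with 1.49 to 5.64 CPM.

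Promoter sequence was looked at because these genes share a direction in both comparisons. For each gene the window was the 250 bases before its outermost start in RefSeq's GRCm38.p6 table, and 17 of 19 markers and top genes had such a window. The letters searched, on both strands, were TTGGCA for a nuclear factor I half-site, ACAATGG for SOX factors, GTTGCCA for an RFX half-site, GGTGGTC for GLI factors and GAGGAAG for PU.1, a myeloid factor; the RFX and nuclear factor I letters overlap where the RFX letters are followed by an A. Of the top genes, 4 had a match: Rfx4, Olig2, Aox1 and Thbs4, the last to the PU.1 letters on the reverse strand 246 to 240 bases before the start. Windows are shown for Gfap, the sort marker, and for the 3 with a match to a factor other than PU.1, with matching letters in capitals and the strand of the gene read 5′ to 3′. The Gfap window is chr11:102897201-102897450 on the minus strand, that of Rfx4 chr10:84755798-84756047 on the plus strand, that of Olig2 chr16:91225300-91225549 on the plus strand and that of Aox1 chr1:58029719-58029968 on the plus strand.
Gfap: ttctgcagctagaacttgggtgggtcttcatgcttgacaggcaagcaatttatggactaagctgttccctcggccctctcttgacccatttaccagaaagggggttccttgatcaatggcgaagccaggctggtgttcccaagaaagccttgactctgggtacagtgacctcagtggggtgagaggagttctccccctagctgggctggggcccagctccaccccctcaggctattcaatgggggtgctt
Rfx4: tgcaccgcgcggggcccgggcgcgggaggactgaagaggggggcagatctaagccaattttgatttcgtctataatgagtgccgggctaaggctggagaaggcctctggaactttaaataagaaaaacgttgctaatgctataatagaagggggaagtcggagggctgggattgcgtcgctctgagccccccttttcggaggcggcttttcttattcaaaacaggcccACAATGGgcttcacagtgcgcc
Olig2: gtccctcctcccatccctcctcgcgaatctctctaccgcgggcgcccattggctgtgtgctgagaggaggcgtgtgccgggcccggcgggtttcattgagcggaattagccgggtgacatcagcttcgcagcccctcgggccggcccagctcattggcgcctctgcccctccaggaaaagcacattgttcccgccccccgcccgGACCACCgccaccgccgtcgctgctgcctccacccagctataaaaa
Aox1: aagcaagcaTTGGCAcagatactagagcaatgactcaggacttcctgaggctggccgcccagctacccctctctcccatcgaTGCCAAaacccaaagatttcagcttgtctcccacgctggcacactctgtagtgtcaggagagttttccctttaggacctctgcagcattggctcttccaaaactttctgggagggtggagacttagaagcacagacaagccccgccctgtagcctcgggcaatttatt

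The Gfap window held none of these letters. The Rfx4 window held the SOX letters 22 to 16 bases before the start. The Olig2 window held the GLI letters on the reverse strand 46 to 40 bases before the start, and the Aox1 window held the nuclear factor I letters at 241 to 236 bases on the forward and 168 to 163 bases on the reverse strand. The nuclear factor I letters were in 12.5% of 1637 windows of enriched genes, 14.1% of the 716 of them enriched at least 4-fold, 9.59% of 1126 windows of genes lower than in both sorts and 10.3% of the 12377 windows of all tested genes. For SOX the shares were 2.44% of enriched, 2.65% of 4-fold enriched, 1.69% of lower and 1.87% of all windows. For RFX they were 3.67%, 3.63%, 2.13% and 3.47%, for GLI 2.5%, 2.65%, 2.13% and 2.68%, and for PU.1 9.22%, 9.08%, 11.9% and 10.5%, in the same order. The median GC content was 59.2% in windows of enriched genes, 60.8% in those of lower genes and 58.8% in all. A match of letters is a description of the window and not a binding site.

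Transcription factors of astrocytes and radial glia were enriched in 26 of 28 cases, the largest share of any list of 12 or more genes. The gene lists were chosen with earlier results of these data known, so high shares are partly built in. Beside the list counts stand the shares of all tested genes, with 13.6% enriched and 8.53% lower than in both sorts. Against myeloid libraries 32.8% were higher and 28.3% lower, and against neuron libraries 26.4% were higher and 29.1% lower. Among the transcription factors, Gli3, the repressor arm of the Hedgehog pathway, stood at 345 ± 93.9 CPM in astrocyte, 6.15 ± 2.66 CPM in myeloid and 9.17 ± 0.954 CPM in neuron libraries. Pax6, a regulator of radial glia, stood at 247 ± 85.1, 5.07 ± 3.05 and 7.74 ± 2.83 CPM in the same sorts. The 2 exceptions were Id1, which passed only against neurons, with 4.36 ± 1.95 CPM in astrocyte and 2.55 ± 2.95 CPM in myeloid libraries, and Prox1, with 59.5 ± 9.67 CPM in astrocyte, 63.4 ± 12.3 CPM in myeloid and 48.9 ± 6.79 CPM in neuron libraries. Of the neural stem and radial glia genes, 8 of 12 were enriched, among them Sox2, a stem cell factor, at 45.1 ± 13.7 CPM and Egfr, the epidermal growth factor receptor, at 121 ± 12.8 CPM in astrocyte libraries. Mki67, a proliferation marker, was lower in astrocytes than in both sorts, at 2.07 ± 1.30 CPM, against 15.3 ± 6.10 CPM in myeloid and 9.83 ± 1.99 CPM in neuron libraries. Dcx, a microtubule protein of young neurons, was lower than in neuron libraries (5.60 ± 2.25 CPM in astrocytes and 86.1 ± 10.5 CPM in neurons) and was not called against myeloid libraries.

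Of 12 tested genes of glutamate uptake and glutamine synthesis, 10 were enriched. Slc38a3, which exports glutamine, stood at 469 ± 146 CPM in astrocyte, 12.4 ± 4.77 CPM in myeloid and 4.38 ± 1.15 CPM in neuron libraries. Slc7a10, a transporter of small neutral amino acids, stood at 239 ± 45.5, 7.99 ± 4.37 and 6.17 ± 1.59 CPM in the same sorts. Glul, which makes glutamine from glutamate, passed over both sorts with unequal gaps, at 841 ± 107 CPM in astrocyte, 434 ± 52.5 CPM in myeloid and 40.4 ± 7.42 CPM in neuron libraries. The 2 aspartate aminotransferases Got1 and Got2 were lower than in neuron libraries, by log2 fold changes of -1.46 ± 0.22 and -0.88 ± 0.29 (edgeR adjusted p = 8.2e-06 and 0.013), and were not called against myeloid libraries.

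Of 11 genes of GABA and glycine uptake and breakdown, 7 were enriched. Slc6a11, a GABA transporter, stood at 491 ± 78.3 CPM in astrocyte libraries, against 24.2 ± 7.02 CPM in myeloid and 6.61 ± 1.63 CPM in neuron libraries. Gldc, which breaks down glycine, had a log2 fold change of 4.74 ± 0.35 over myeloid and 6.03 ± 0.38 over neuron libraries. The taurine transporter gene Slc6a6 was lower in astrocytes than in both sorts, at 141 ± 29.0 CPM, against 238 ± 45.0 CPM in myeloid and 238 ± 18.8 CPM in neuron libraries.

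Of 14 genes of potassium, water and ion transport, 9 were enriched. Atp1b2, a beta subunit of the sodium pump, stood at 1434 ± 150 CPM in astrocyte libraries, against 49.6 ± 5.87 CPM in myeloid and 38.8 ± 9.74 CPM in neuron libraries. Kcnj10, the inward rectifier Kir4.1, stood at 321 ± 56.3, 39.1 ± 8.23 and 5.76 ± 1.22 CPM in the same sorts. The chloride cotransporter gene Slc12a2 was lower than in myeloid libraries, with -0.78 ± 0.24 on the log2 scale and an edgeR adjusted p of 0.0075.

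All 3 connexin genes of astrocytes, Gja1, Gjb6 and Gjb2, were enriched, and the fourth gene of that list, the pannexin gene Panx1, was lower than in both sorts. Gjb2, which encodes connexin 26, had 9.39, 14.2, 17.0, 11.8 and 17.1 CPM in astrocyte libraries, against 0.303 to 2.53 CPM in myeloid libraries and a count of 0 in every neuron library. Against a floor of 3 counts per neuron library, a mean of 0.492 CPM, this was at least 28.3-fold higher in astrocytes than in neurons. Panx1 had 0.155 to 1.23 CPM in astrocyte libraries, against 5.41 to 14.2 CPM in myeloid and 7.55 to 12.4 CPM in neuron libraries, with no overlap.

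Of 13 genes of endfoot scaffold and adhesion, 10 were enriched. Hepacam and Mlc1, membrane proteins that act together at astrocyte junctions, stood at 339 ± 31.2 and 111 ± 10.9 CPM in astrocyte libraries, against 13.6 ± 4.65 and 7.97 ± 2.33 CPM in myeloid and 2.63 ± 0.602 and 1.001 ± 0.552 CPM in neuron libraries. Dtna, which encodes dystrobrevin alpha, stood at 2101 ± 208 CPM in astrocytes, 62.2 ± 15.1 CPM in myeloid and 378 ± 62.9 CPM in neurons. Dmd, which encodes dystrophin, was higher than in myeloid but lower than in neuron libraries, at 784 ± 73.9 CPM in astrocytes, 53.5 ± 14.4 CPM in myeloid and 1540 ± 270 CPM in neurons. The laminin receptor gene Itga6 was lower than in myeloid libraries (119 ± 25.8 CPM in astrocytes and 224 ± 30.7 CPM in myeloid) and higher than in neurons (11.0 ± 2.32 CPM).

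Of 14 tested Notch pathway genes, 7 were enriched, 2 were lower than in both sorts and 3 were higher than in neurons but not than in myeloid libraries. Notch1, a receptor, stood at 443 ± 69.0 CPM in astrocytes, 117 ± 9.64 CPM in myeloid and 4.74 ± 1.24 CPM in neuron libraries, and its targets Hes5 and Hey2 at 21.2 ± 8.94 and 18.1 ± 4.27 CPM in astrocytes, with no more than a mean of 2.25 CPM in the other sorts. The ligand genes went in opposite directions: Jag1 was enriched at 28.7 ± 9.36 CPM, against 3.64 ± 1.78 CPM in myeloid and 5.74 ± 1.17 CPM in neurons, and Jag2 was lower in astrocytes at 3.04 ± 1.44 CPM, against 15.5 ± 4.83 and 28.6 ± 8.03 CPM. Numb, an inhibitor of Notch, was also lower, at 62.7 ± 13.2 CPM in astrocytes, against 519 ± 48.3 CPM in myeloid and 117 ± 14.4 CPM in neurons.

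Among growth factor receptors and their feedback genes, 10 of 14 were enriched, including 3 fibroblast growth factor receptor genes. Fgfr1 and Fgfr2 stood at 494 ± 73.1 and 225 ± 26.4 CPM in astrocytes, against 15.1 ± 5.10 and 13.0 ± 6.45 CPM in myeloid and 30.0 ± 3.68 and 7.47 ± 1.79 CPM in neuron libraries. Bmpr1b, a bone morphogenetic protein receptor, had log2 fold changes of 5.12 ± 0.33 over myeloid and 4.71 ± 0.31 over neurons. The feedback gene Spry1 was lower than in myeloid libraries (1.68 ± 0.682 CPM in astrocytes and 6.61 ± 2.16 CPM in myeloid), and the neuregulin receptor gene Erbb4 was lower than in neurons (37.4 ± 8.11 CPM in astrocytes and 100 ± 25.1 CPM in neurons).

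Of 26 tested G protein-coupled receptor genes, 16 were enriched, 24 were higher than in myeloid libraries and 4 were lower than in neurons. Over all tested genes these shares were 13.6%, 32.8% and 29.1%. Beside Ntsr2, S1pr1, a sphingosine phosphate receptor, stood at 328 ± 42.8 CPM in astrocytes, 19.0 ± 7.45 CPM in myeloid and 1.16 ± 0.182 CPM in neurons, and Celsr1, a receptor of planar polarity, at 181 ± 28.6, 4.597 ± 4.14 and 1.65 ± 0.437 CPM. Grm5, a metabotropic glutamate receptor, was higher than in myeloid but lower than in neuron libraries, at 19.5 ± 8.06 CPM in astrocytes, 9.90 ± 4.92 CPM in myeloid and 322 ± 27.2 CPM in neurons.

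Of 18 secreted and matrix factors that act on synapses, 13 were enriched. Sparcl1, or hevin, had 2196 to 2802 CPM in astrocyte libraries, against 70.3 to 158 CPM in myeloid and 118 to 161 CPM in neuron libraries, and Bcan, the proteoglycan brevican, had 1617 to 2568 CPM, against 26.1 to 94.9 and 15.9 to 26.2 CPM. Sparc, a relative of Sparcl1, was higher than in neurons but lower than in myeloid libraries, at 87.7 ± 28.5 CPM in astrocytes, 743 ± 107 CPM in myeloid and 8.96 ± 3.34 CPM in neurons. Lcn2, a lipocalin induced in inflammation, stood at 0.0806 ± 0.115 CPM in astrocytes, 24.8 ± 17.3 CPM in myeloid and 0.148 ± 0.0914 CPM in neurons.

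Of 8 phagocytosis genes, all were higher than in neurons, 4 were also higher than in myeloid libraries and the other 4 were lower than there. Among all tested genes, 26.4% were higher than in neurons and 13.6% were higher than in both sorts. A share of 5.53% was higher than in neurons but lower than in myeloid libraries. Megf10, an engulfment receptor, stood at 106 ± 10.5 CPM in astrocytes, 4.99 ± 1.44 CPM in myeloid and 2.14 ± 0.885 CPM in neurons, and Mfge8, a bridging ligand, at 401 ± 70.8, 33.4 ± 15.3 and 4.24 ± 1.72 CPM. The lipid exporter gene Abca1 and the endocytic receptor gene Lrp1 stood at 373 ± 26.0 and 1282 ± 230 CPM in astrocytes, against 808 ± 90.8 and 3007 ± 465 CPM in myeloid and 20.5 ± 2.09 and 459 ± 95.7 CPM in neurons. Mertk, a receptor kinase that binds bridging ligands on dying cells, stood at 568 ± 138 CPM in astrocytes, 1274 ± 143 CPM in myeloid and 7.57 ± 2.11 CPM in neurons.

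**Figure D3:**
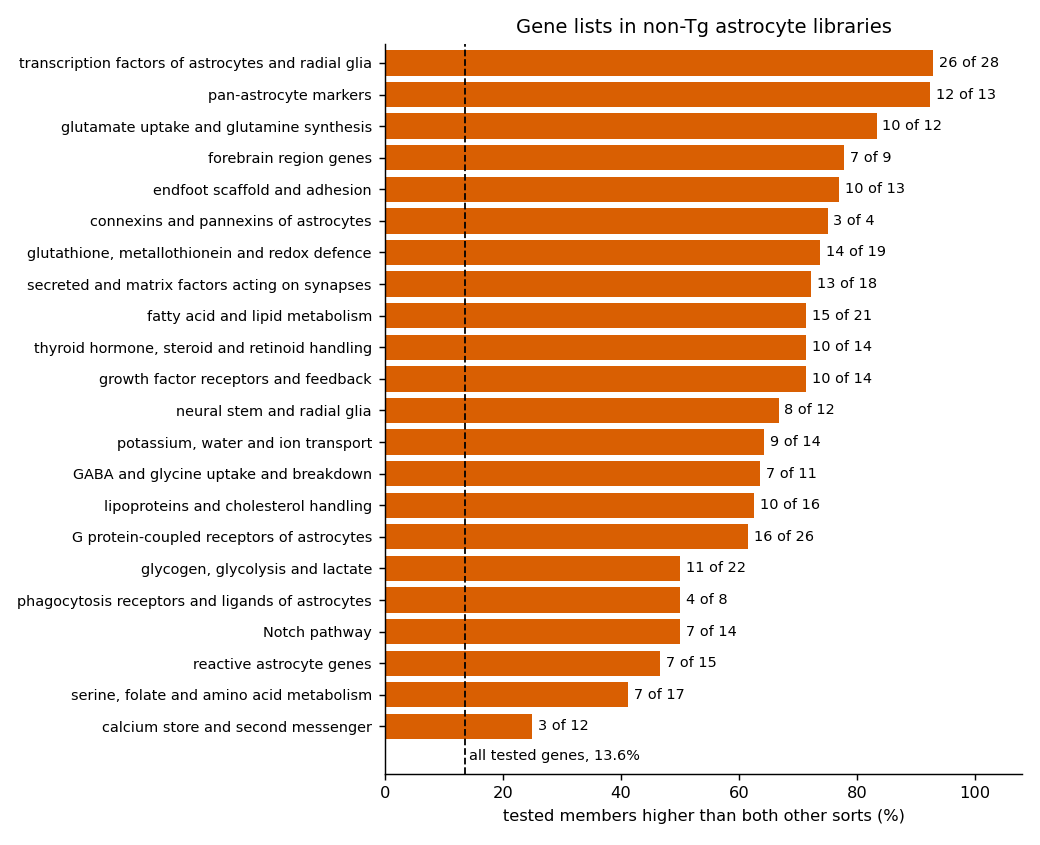
For each list of astrocyte genes with at least 3 tested members, bars show the percent of those members that were higher in non-Tg astrocyte libraries than in both myeloid and neuron libraries, with the counts at the bar ends and the 13.6% of all tested genes as a dashed line. Transcription factors, with 26 of 28, stand at the top, and calcium store and second messenger genes, with 3 of 12, at the bottom. The lists were chosen as astrocyte genes with earlier results of these data known, so shares above the line are partly built in.

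Lipid genes were enriched in most cases. Of 21 fatty acid genes, 15 were enriched, 18 were higher than in neurons and 1 was lower than in myeloid libraries. The shares of all tested genes were 13.6%, 26.4% and 28.3%, in that order. Acsbg1 and Acsl3, which activate fatty acids, stood at 496 ± 87.9 and 491 ± 158 CPM in astrocytes, against 25.2 ± 11.6 and 17.6 ± 6.97 CPM in myeloid and 1.83 ± 0.443 and 30.0 ± 7.81 CPM in neurons. Fads2, a fatty acid desaturase, stood at 332 ± 74.1 CPM in astrocytes, 10.4 ± 4.64 CPM in myeloid and 12.2 ± 3.34 CPM in neurons. Of 16 lipoprotein and cholesterol genes, 10 were enriched and 2 were lower than in both sorts. Apoe, the main lipid carrier of the brain, had 519, 744, 634, 599 and 567 CPM in astrocyte libraries, against 159 to 206 CPM in myeloid and 6.4 to 15 CPM in neuron libraries, and Clu, or clusterin, stood at 594 ± 43.9, 51.4 ± 12.9 and 26.0 ± 4.54 CPM. The 2 lower genes were the cholesterol exporter gene Abcg1, at 9.68 ± 5.97 CPM in astrocytes, 67.6 ± 14.6 CPM in myeloid and 25.4 ± 2.80 CPM in neurons, and the lipase gene Lpl, at 1.11 ± 0.784, 3.86 ± 0.729 and 11.8 ± 2.80 CPM.

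Energy metabolism was divided. Of 22 genes of glycogen, glycolysis and lactate, 11 were enriched, against 13.6% of all tested genes. In this list 4 were lower than in myeloid libraries and 3 were lower than in neurons, against 28.3% and 29.1% of all tested genes. The enriched ones included Aldoc, the aldolase of astrocytes, at 348 ± 27.6 CPM in astrocytes, 75.1 ± 18.7 CPM in myeloid and 15.7 ± 2.66 CPM in neurons, and the glycogen phosphorylase gene Pygb at 239 ± 32.3, 63.7 ± 10.2 and 37.8 ± 5.05 CPM. Of the monocarboxylate transporters, Slc16a7 was lower than in both sorts, at 6.85 ± 0.820 CPM in astrocytes, 37.0 ± 9.98 CPM in myeloid and 76.1 ± 14.0 CPM in neurons, and Slc16a3 was lower than in myeloid libraries, at 2.08 ± 1.11 CPM against 27.4 ± 7.29 CPM.

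Of 17 tested genes of serine, folate and amino acid metabolism, 7 were enriched, and 5 more were higher than in neurons with no call against myeloid libraries. Prodh, which degrades proline, stood at 181 ± 22.1 CPM in astrocytes, 12.3 ± 3.16 CPM in myeloid and 2.75 ± 1.59 CPM in neurons, and Cth, the partner of Cbs in making cysteine, at 10.1 ± 3.72, 0.269 ± 0.334 and 0.227 ± 0.139 CPM. Bcat1, an aminotransferase of branched-chain amino acids, was lower than in neurons, at 8.89 ± 5.73 CPM in astrocytes and 41.9 ± 2.13 CPM in neurons. Of 19 redox genes, 14 were enriched, among them the peroxiredoxin gene Prdx6 at 193 ± 36.2 CPM in astrocytes, 22.2 ± 6.59 CPM in myeloid and 13.1 ± 1.58 CPM in neurons. Nfe2l2, a regulator of antioxidant genes, was higher than in neurons (83.2 ± 13.8 CPM in astrocytes and 4.15 ± 0.991 CPM in neurons) and lower than in myeloid libraries (196 ± 34.3 CPM).

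Of 14 genes that handle thyroid hormone, steroids and retinoids, 10 were enriched. Dio2, which activates thyroid hormone, stood at 179 ± 38.9 CPM in astrocytes, 26.2 ± 6.83 CPM in myeloid and 7.51 ± 2.74 CPM in neurons, and Slco1c1, a thyroxine transporter, at 122 ± 36.2, 4.97 ± 3.34 and 0.532 ± 0.512 CPM. The cytochrome P450 gene Cyp4f15 stood at 112 ± 23.9 CPM in astrocytes and 2.92 ± 0.669 CPM in myeloid libraries.

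Calcium store and second messenger genes had the smallest share among the lists of astrocyte functions, with 3 of 12 enriched. Plcd4, a phospholipase C, was among the 3, with 278 to 450 CPM in astrocyte libraries, against 5.46 to 29.8 CPM in myeloid and 5.15 to 8.08 CPM in neuron libraries. The inositol trisphosphate receptors were divided among the sorts. Itpr2, the form best studied in astrocytes, was higher than in neurons but lower than in myeloid libraries, at 612 ± 53.0 CPM in astrocytes, 1122 ± 105 CPM in myeloid and 22.9 ± 3.72 CPM in neurons. Itpr1 was lower than in neurons, at 120 ± 28.9 CPM in astrocytes and 621 ± 80.3 CPM in neurons, and Itpr3 was lower than in both sorts, at 1.93 ± 0.753 CPM in astrocytes, 112 ± 38.5 CPM in myeloid and 3.74 ± 0.930 CPM in neurons. The Itpr3 call against neurons (edgeR adjusted p = 0.018) was lost without astrocyte library 1 (edgeR adjusted p = 0.053).

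Of 9 tested forebrain region genes, 7 were enriched, and all 9 were higher than in myeloid libraries. Across all tested genes, 13.6% were enriched and 32.8% were higher than in myeloid libraries. Lhx2 and Emx2, homeobox genes of the cortical primordium, stood at 164 ± 45.7 and 52.0 ± 18.9 CPM in astrocytes, against 7.98 ± 3.46 and 1.87 ± 1.40 CPM in myeloid and 14.97 ± 2.52 and 1.93 ± 0.533 CPM in neurons. Of 13 midbrain, hindbrain and cord genes, 11 did not have enough counts to be tested, and the 2 that did, Gdf10 and Otx2, were enriched at 29.3 ± 7.28 and 7.12 ± 3.30 CPM in astrocytes. Otx2 is also in the list of choroid plexus markers used below. Its level was low, at 2.92 to 10.9 CPM in astrocyte libraries, against 0 to 2.72 CPM in myeloid libraries. Gdf10 is a bone morphogenetic protein family member known from Bergmann glia of the cerebellum.

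Of 15 tested genes of reactive astrocytes, 7 were enriched, 5 were higher than in neurons but not than in myeloid libraries, and 4 were lower than in myeloid libraries. C4b, a complement component, had 500, 517, 437, 388 and 465 CPM in astrocyte libraries, against 9.27 to 20.9 CPM in myeloid and 0.251 to 1.89 CPM in neuron libraries. Osmr, the oncostatin M receptor, stood at 46.0 ± 7.62 CPM in astrocytes, 1.28 ± 1.21 CPM in myeloid and 0.213 ± 0.198 CPM in neurons. The antigen presentation genes Psmb8 and H2-D1 were lower than in myeloid libraries, at 0.928 ± 0.655 and 7.57 ± 1.03 CPM in astrocytes, against 38.7 ± 8.23 and 66.6 ± 25.3 CPM.

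The 8 genes most below both other sorts, by the same rule turned round, were Atp8a2, Map3k9, Plcl2, Trpm2, Otulinl, Csmd3, Cds1 and Ptk2b. Astrocyte libraries below all 10 others were found for 4.87% of all tested genes, and the rule for the 8 required this. Atp8a2, a phospholipid flippase, had 8.97, 4.6, 4.93, 10.7 and 4.46 CPM in astrocyte libraries, against 383 to 459 CPM in myeloid and 121 to 178 CPM in neuron libraries, with log2 fold changes of -5.93 ± 0.24 and -4.41 ± 0.22. Trpm2, a cation channel gated by oxidative stress, had 1.49 to 5.64 CPM in astrocyte libraries, against 265 to 409 CPM in myeloid and 39.3 to 86.0 CPM in neuron libraries. Ptk2b, the calcium-responsive tyrosine kinase Pyk2, had 10.4 to 30.9 CPM in astrocyte libraries, against 200 to 256 CPM in myeloid and 186 to 318 CPM in neuron libraries. Csmd3, a large membrane protein gene, had 21.8 to 74.0 CPM in astrocyte libraries, against 838 to 1077 CPM in myeloid and 619 to 794 CPM in neuron libraries.

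The libraries were also read for markers of other cell types. Microglia markers summed to 46.6 to 75.8 CPM in astrocyte libraries, 9131 to 10120 CPM in myeloid and 56.6 to 79.7 CPM in neuron libraries, and no marker was at 0 in all astrocyte libraries. Over the 10 microglia markers, the astrocyte level was a median of 0.475% of the myeloid level, at most 1.77% for P2ry12, a receptor of resting microglia. Neuron markers summed to 402 to 687 CPM in astrocyte libraries, 309 to 573 CPM in myeloid and 2348 to 3006 CPM in neuron libraries. Over the 13 neuron markers, the astrocyte level was a median of 18.8% of the neuron level, between 6.27% for Syt1, a synaptic vesicle protein, and 77.1% for Nefl, a neurofilament protein. Of these 13, none was enriched, 4 were higher than in myeloid and 12 were lower than in neuron libraries. For all tested genes these shares were 13.6%, 32.8% and 29.1%. In the other direction, astrocyte markers in myeloid libraries stood at a median of 4.47% of their astrocyte level and in neuron libraries at 0.627%.

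Markers of other glia and of vessels were higher in the astrocyte libraries than in at least 1 other sort in several lists. The share of all tested genes that was enriched, 13.6%, stands beside the marker counts that follow. Oligodendrocyte markers summed to 824 to 1309 CPM in astrocyte libraries, 732 to 1163 CPM in myeloid and 161 to 284 CPM in neuron libraries, and 4 of 11 tested were enriched, among them Mog, Cldn11 and Aspa. Their calls against myeloid libraries were each lost when certain single libraries were left out. That of Aspa was lost without any of astrocyte libraries 3, 4 and 5 or myeloid libraries 1, 2, 3 and 4 (edgeR adjusted p = 0.051 to 0.085), and that of Mog without astrocyte library 3 or 4 or myeloid library 3, 4 or 5 (edgeR adjusted p = 0.051 to 0.15). That of Cldn11 was lost without astrocyte library 1, 3 or 4, myeloid library 1, 2 or 4 or any neuron library (edgeR adjusted p = 0.051 to 0.11). Of 6 tested markers of oligodendrocyte precursors, 5 were enriched, among them C1ql1 and Gpr17 at 10.7 ± 4.42 and 19.8 ± 5.36 CPM in astrocytes. The other, Lhfpl3, was lower than in neuron libraries, at 2.77 to 8.15 CPM in astrocyte and 14.5 to 18.1 CPM in neuron libraries. The part of these cells in the enriched genes was not tested.

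Of 7 tested pericyte and smooth muscle markers, 3 were enriched, Pdgfrb, Abcc9 and Acta2. Acta2, a smooth muscle actin, had 10, 3.76, 3.7, 3.88 and 4.22 CPM in astrocyte libraries, against 1.36 to 4.07 CPM in myeloid and 1.67 to 3.31 CPM in neuron libraries, and overlapped the myeloid libraries. Without astrocyte library 1 its calls over both sorts were lost (edgeR adjusted p = 0.1 for each), and without neuron library 4 or 5 its call over neurons was lost (edgeR adjusted p = 0.055 for each). Pdgfrb, the platelet-derived growth factor receptor of pericytes, had 202, 219, 149, 196 and 175 CPM in astrocyte libraries, against 7.03 to 20.1 CPM in myeloid and 2.07 to 5.00 CPM in neuron libraries. No other marker of that list reached a mean of 10 CPM in astrocyte libraries. Of 6 tested leptomeningeal fibroblast markers, 4 were enriched, with collagen I gene Col1a1 at 66.3 to 149 CPM in astrocyte libraries, 1.58 to 15.5 CPM in myeloid and 0.61 to 3.43 CPM in neuron libraries. None of the 7 tested endothelial markers was enriched, 2 of 6 ependymal markers were, Foxj1 and Dnah12, and of 6 choroid plexus markers Otx2 was. Each of these lists held only 6 or 7 tested genes, and 13.6% of all tested genes were enriched. Pericyte and smooth muscle markers summed to 187.2 to 264.5 CPM in astrocyte, 19.12 to 45.42 CPM in myeloid and 15.48 to 18.53 CPM in neuron libraries. In the same order, leptomeningeal fibroblast markers summed to 128.9 to 215.5, 20.95 to 42.39 and 5.14 to 8.853 CPM. The ependymal sums were 47.26 to 87.23, 16.22 to 40.05 and 11.53 to 22.04 CPM. S100a8, a neutrophil gene, had a count of 0 in every astrocyte library, with a floor of 3 counts at a mean of 0.677 CPM, against 182 ± 137 CPM in myeloid libraries. The part of pericytes, fibroblasts and ependymal cells in the enriched genes was not tested.

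**Figure D4:**
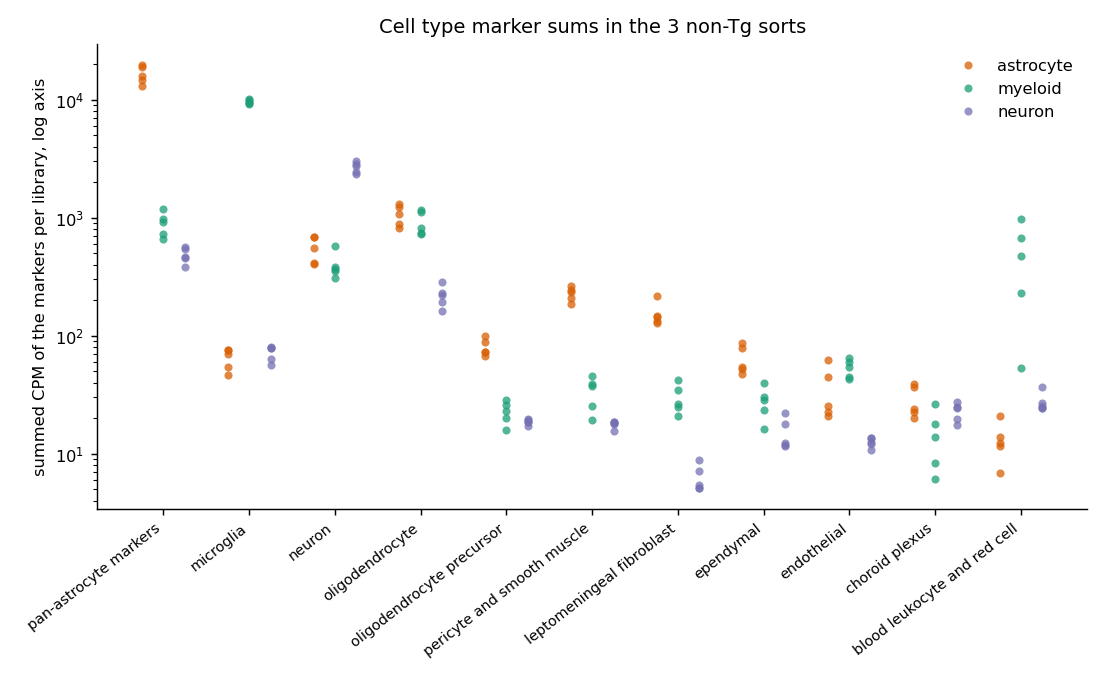
Summed CPM of the markers of each cell type, on a log axis, in each non-Tg library, with astrocyte, myeloid and neuron libraries side by side (5 points each). Pan-astrocyte markers sum to 13040 to 19650 CPM in astrocyte libraries and microglia markers to 46.6 to 75.8 CPM there, while neuron markers, at 402 to 687 CPM, come closer to their 2348 to 3006 CPM in neuron libraries.

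The same rule was applied to the 15 PS2APP libraries, whose counts do not enter the rule for the non-Tg genes. RNA amount, spin and the block of sample identifiers differed with the sort in these libraries too. Genes shared by both sets therefore cannot separate such steps from the sort. There, 1791 of 15385 tested genes (11.6%) were higher in astrocytes than in both other sorts. Of the 2381 genes enriched in non-Tg libraries, 2076 had enough counts to be tested in PS2APP libraries, and 1570 of those were enriched there as well, which is 75.6% of the tested ones, 65.9% of all 2381 and 87.7% of the genes enriched in PS2APP libraries. Of the 13252 genes tested in both sets and not enriched in non-Tg libraries, 214 (1.61%) were enriched in PS2APP libraries. Of the 1034 genes that had been at least 4-fold over both sorts, 833 had enough counts to be tested in PS2APP libraries. Of these 833, 806 (96.8%) were enriched there, and the rest of the 1034 could not be looked at. The myeloid libraries of PS2APP mice held 2015535 to 2908222 counts, against 3578249 to 6143018 in non-Tg mice. Neuron markers summed to 650 to 1676 CPM in PS2APP astrocyte libraries and 402 to 687 CPM in non-Tg ones, each scaled within its own set of 15; their part in the calls was not tested.

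The median log2 fold change of the 2076 genes in PS2APP libraries was 2.67 over myeloid and 2.06 over neuron libraries, beside 0.10 and -0.03 over all genes tested there. Both fold changes were positive for 2043 of them and none was lower than in both sorts. For 2 genes, named after their values were seen, PS2APP astrocytes were lower than PS2APP myeloid cells. Myo1e, an unconventional myosin, had log2 fold changes over myeloid of -0.90 in PS2APP libraries (edgeR adjusted p = 0.0012) and 1.09 in non-Tg libraries, and 3425401B19Rik had -2.37 (edgeR adjusted p = 0.0029) and 1.22. The difference between genotypes was not tested for these genes. Gfap had a log2 fold change over myeloid of 3.44 ± 0.24 in PS2APP libraries and 5.34 ± 0.24 in non-Tg libraries, a difference that was not tested. All 15 top genes were enriched in PS2APP libraries too: Gli2 had log2 fold changes of 6.05 ± 0.40 over myeloid and 9.37 ± 0.48 over neurons, and Rfx4 had 7.37 ± 0.33 and 6.31 ± 0.29. Of the genes lower than in both sorts in non-Tg libraries, 616 of 1430 tested (43.1%) were also lower than in both in PS2APP libraries, where 5.08% of all tested genes were, and all 8 named ones were among them.

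**Figure D5:**
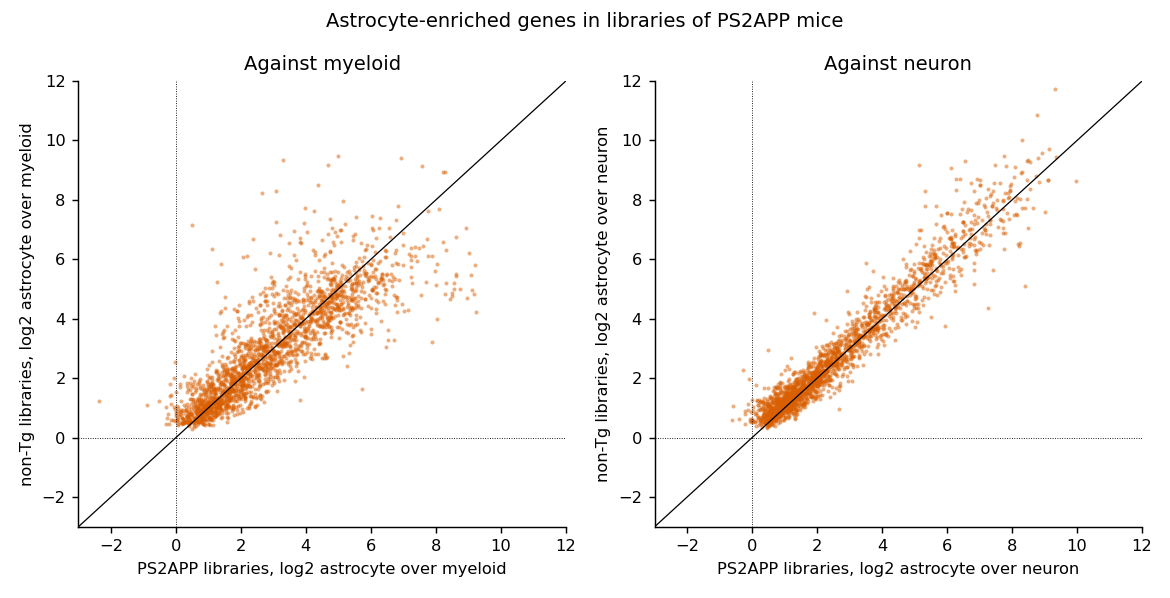
For the astrocyte-enriched genes of non-Tg mice that could be tested in both sets, the log2 fold change in PS2APP libraries is on the horizontal and in non-Tg libraries on the vertical axis, over myeloid (left) and over neuron libraries (right); the diagonal marks equal values. Points follow the diagonal in both panels, with medians in PS2APP libraries of 2.67 over myeloid and 2.06 over neurons and in non-Tg libraries of 2.89 and 2.26 over all 2381 genes.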

How the data were processed

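RNA sequencing had been done on sorted brain cells of non-Tg and PS2APP mice. The deposited files give, for each sample and Entrez gene ID, a raw count of reads aligning uniquely to the gene model and an RPKM that the authors adjusted by library size factors, per the file headers. GSNAP and GRCm38 are named in the submitters' processing notes; their versions, and which annotation was counted, are not stated there. Each deposited RPKM equalled the count times 1 factor per library divided by 1 length per gene, to within a relative deviation of 7.1e-15. Use of strand in counting is not stated either, so reads of overlapping genes cannot be assigned with certainty.

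Of 36528 gene IDs, 31049 had a symbol in RefSeq's GRCm38.p6 table, and these held at least 89.8% of the counts of every library. Samples were grouped by the labelled genotype and cell type. Replicates were numbered in accession order, since the labels give no numbers. The 15 non-Tg libraries entered a joint fit with edgeR 4.0.16 in R 4.3.3 (filterByExpr, trimmed mean of M-values factors, quasi-likelihood test). The contrasts were astrocyte minus myeloid and astrocyte minus neuron, with Benjamini-Hochberg adjustment over the 17496 genes that passed the filter and a threshold of 0.05. Adjusted p-values in the text are from these fits. The same model was fitted to the 15 PS2APP libraries alone. The script was tested on simulated counts with known changes. No pair of replicates matched within sampling noise, the lowest chi-square per degree of freedom being 3.715. Totals of 3412723 to 6749681 counts per library limit the precision of low genes, and floors of 3 counts cover counting error only.

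Genes were named by rule: the 4 markers and the sort genes, the 15 enriched genes with the largest smaller fold change at a mean of at least 50 CPM without overlap, the 8 lower ones by the same rule over the other 10 libraries, the 6 enriched genes of highest RPKM, and from each list up to 4 enriched members and 2 lower ones by p. S100b, Pax6, Id1, Prox1, Glul, Mertk, Apoe, Lpl, Itpr2, Olig1, P2ry12, Nefl, Ctnna1, Prpf4, Myo1e and 3425401B19Rik were chosen after their values were seen. The members and gene lists were chosen with earlier results of these data known. Alternatives were other scaling factors, other filters, DESeq2 1.42.0, removal of the most abundant genes, fits of only the sorts compared, a 2-fold threshold (glmTreat) and leaving out each library in turn. Results for some genes that the rule names are not reported here.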

Additional observations from a re-analysis of the deposited data

Results flagged for a closer look

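In 9 of 144 groups of 5 libraries checked, the highest or lowest library lay far from the other 4 by Dixon's criterion, which chance gives in about 1 of 20 groups. Among myeloid libraries, Itgam reached 1931 CPM in the highest library, against 1450 to 1560 CPM in the others, and Csmd3 1077 CPM, against 838 to 896 CPM. A high myeloid library was also seen for 2 astrocyte-enriched genes, Grin2c with 29.4 CPM, against 12.8 to 14 CPM in the others, and Tnc with 17.7 CPM, against 0.18 to 3.62 CPM. The sum of neuron markers was 573 CPM in the highest myeloid library, against 309 to 384 CPM. Among astrocyte libraries, Mir378b was at 131 CPM in the highest, against 91.2 to 101 CPM, and the sum of leptomeningeal fibroblast markers at 216 CPM, against 129 to 147 CPM. Among neuron libraries, the sum of pericyte and smooth muscle markers was 15.5 CPM in the lowest, against 17.8 to 18.5 CPM, and the sum of blood cell markers 37.1 CPM in the highest, against 24.4 to 26.7 CPM.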

How the results depend on the processing

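No named gene changed direction with a call in 7441 comparisons of an alternative with its main value; 7359 kept their call, 64 lost it and 18 gained it. Without the 2-fold threshold, 30 losses were left, in Aspa, Mog, Cldn11, Acta2 and Itpr3. Testing against a 2-fold change (glmTreat) asks for a larger change by construction. It gave 3764 genes higher and 2513 lower than in myeloid libraries, and 2567 higher and 2776 lower than in neuron libraries. By the same test 1314 genes were enriched and 394 were lower than in both sorts. With it applied to both sets, 915 of the 1314 were also enriched in PS2APP libraries, beside 1570 of 2381 in the main fits. With no filter on low counts, 1658 genes were at least 4-fold over both sorts, and 7163 were higher and 5685 lower than in myeloid libraries. Fits of only the sorts compared gave 4561 genes higher and 4302 lower than in myeloid libraries, beside 5735 and 4957 in the main fit. They gave 5153 higher and 5049 lower than in neuron libraries, 2586 enriched and 1068 lower than in both sorts. The cause of these shifts was not tested. Leaving out each library in turn gave 5582 to 6004 genes higher and 4599 to 5089 lower than in myeloid libraries, 4346 to 5096 higher and 4653 to 5446 lower than in neuron libraries, 2253 to 2576 enriched, 1039 to 1169 of them at least 4-fold, 1179 to 1561 lower than in both sorts and 1502 to 1673 of the enriched genes also enriched in PS2APP libraries. Of the 2381 enriched genes, 2208 to 2339 remained enriched when a library was left out and 2278 to 2381 under the other settings except the 2-fold threshold. The median log2 fold change over all genes lay between 0.10 and 0.21 over myeloid and between -0.08 and 0.00 over neuron libraries across scalings, filters and tools. Rbfox3 passed against myeloid libraries under DESeq2 and other scalings but not in the fit reported. No paired analysis was possible because the labels give no replicate numbers and do not tie libraries to animals. Depth limits calls for genes of few counts, of which 19032 IDs were not tested.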
